A study of Mus musculus with 12 samples.

Results

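The CC chemokines examined were 10 genes, Ccl2, Ccl3, Ccl4, Ccl5, Ccl7, Ccl8, Ccl9, Ccl12, Ccl17 and Ccl22, out of 43453 genes in the count table. They were picked by name, with earlier results of these data known. For each, the transcript with the most counts over the libraries stood for the gene. BMDMs, macrophages grown from bone marrow of C57BL/6 mice with 50 ng/mL of M-CSF for 7 days, came from tlr4f/f mice and from tlr4f/f-lysM-cre mice, and were left untreated (LPS-) or given 1 µg/mL of LPS, the bacterial cell wall product sensed by TLR4, for 6 h (LPS+). Every group carried the floxed Tlr4 alleles. In tlr4f/f-lysM-cre mice the Cre recombinase is made from the lysM promoter, the promoter of the lysozyme gene Lyz2, so that Tlr4 is removed in myeloid cells. There were 3 libraries in each of the 4 groups, 12 in all, with 33577440 to 56445989 counts per library. Neither the age of the mice nor whether the 3 libraries came from separate mice is given for the BMDMs in the sources used here, so p-values measure the spread between these libraries, which may be technical.

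CC chemokines are small secreted proteins with paired cysteines near their start, and they draw leukocytes along a gradient by binding G protein-coupled CCR receptors. Macrophages are a main source of them after microbial contact. The genes were described in 3 sets: the monocyte chemoattractants Ccl2, Ccl7 and Ccl12, which act on CCR2, with their close relative Ccl8, the inflammatory chemokines Ccl3, Ccl4, Ccl5 and Ccl9, which draw monocytes, T cells and NK cells, and the CCR4 ligands Ccl17 and Ccl22, which draw Th2 and regulatory T cells and are typical of dendritic cells and of alternatively activated macrophages.

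Groups are named below by their column headings, and 3 genes went against them. Tlr4, the targeted gene, was at 76.9, 146 and 121 CPM (read counts relative to the library total, scaled by TMM factors) under the heading LPS- tlr4f/f and at 117, 94.7 and 116 CPM under LPS- tlr4f/f-lysM-cre, but at 24.5 to 31.2 CPM under LPS+ tlr4f/f and 24.4 to 27.4 CPM under LPS+ tlr4f/f-lysM-cre. Lyz2 split the libraries in the same way, with at least 5951 CPM in both LPS- groups and at most 75.3 CPM in both LPS+ groups. Il1b, an early LPS target, was at 1633 to 8221 CPM in LPS- tlr4f/f-lysM-cre and at 2487 to 2670 CPM in LPS+ tlr4f/f-lysM-cre, against at most 6.95 CPM in the other groups. The heading LPS+ tlr4f/f may therefore have been exchanged with LPS- tlr4f/f-lysM-cre, and each comparison is given under both readings: the values of a pair of groups stay the same and only what the pair compares changes. The 4 comparisons share libraries, so they are not independent of each other.

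Libraries of 1 group did not always resemble each other. Replicate 3 headed LPS- tlr4f/f held the lowest level of its group for 8 of the 10 chemokines, and replicate 1 headed LPS- tlr4f/f-lysM-cre the highest for 7. All 7 macrophage markers were above the floor of 3 counts in every group and summed to 4440 to 13700 CPM. The 7 fibroblast and stromal markers summed to 679, 61.8 and 10.5 CPM in the LPS- tlr4f/f libraries and to 950, 139 and 1500 CPM in the LPS- tlr4f/f-lysM-cre libraries, against 22.3 to 27.3 CPM in LPS+ tlr4f/f and 32 to 46.7 CPM in LPS+ tlr4f/f-lysM-cre. Dendritic cell markers summed to at most 13.2 CPM, with Flt3 and Siglech at the floor in every group, neutrophil markers reached 190.0 CPM in replicate 3 of LPS- tlr4f/f-lysM-cre with Ly6g at the floor in every group, and lymphocyte, mast cell and basophil markers stayed at or below 2.81 CPM. In bulk RNA, fewer cells of a type and less RNA per cell cannot be told apart.

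The genes sit in 3 clusters (RefSeq, GRCm38.p6, the assembly of mm10). Ccl2 (chr11:82035577-82037452), Ccl7 (chr11:82045712-82047525), Ccl12 (chr11:82101845-82103399) and Ccl8 (chr11:82115185-82116799) lie within 81.2 kb on the plus strand of chromosome 11. Ccl5 (chr11:83525778-83530518), Ccl9 (chr11:83572917-83578636) and Ccl3 (chr11:83647843-83649378), all on the minus strand, and Ccl4 (chr11:83648624-83664683) on the plus strand lie within 139.0 kb further along it. Ccl22 (chr8:94745684-94751388) and Ccl17 (chr8:94809380-94812038) lie within 66.4 kb on the plus strand of chromosome 8.

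Reads could be assigned to most of these genes without ambiguity from shared sequence. In the GENCODE transcripts of mm10, none of the 50-base stretches of 9 of the genes occurred in a transcript of another gene, and for Ccl9 109 of 2996 did, in 463 genes of which none was a chemokine gene. Ccl3 and Ccl4 are the exception by position: the predicted long transcript of Ccl4, which held the most counts, reaches 755 bases into the span of Ccl3 on the other strand, and the library kit does not mark strand, so reads there cannot be told apart. The curated Ccl4 transcript, which does not reach Ccl3, held 1355, 935 and 1178 counts in LPS+ tlr4f/f against 1542, 1080 and 1374 for the predicted transcript, and no Ccl4 call below depended on the choice.

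Promoter windows, 250 bases before and 50 after the transcript start, were given in the RefSeq promoter table (GRCm38.p6) for 6 of the 10 genes, Ccl3, Ccl8, Ccl9, Ccl12, Ccl17 and Ccl22, and those of Ccl2, Ccl4, Ccl5 and Ccl7 were not used here. They were searched on both strands for an NF-kB motif (GGG and CC with any 5 bases between), an interferon response motif (GAAA and GAAA with any 2 between), an AP-1 motif (TGANTCA) and a STAT motif (TTC and GAA with any 4 between). The NF-kB motif occurred 2 times in Ccl22 and 1 time in Ccl9, and is held by 50.8% of all 32851 promoters of the table. The AP-1 motif occurred in Ccl9 (7.81% of all promoters) and the STAT motif in Ccl17 (6.95%), without overlap with the NF-kB motif. The interferon motif, held by 3.44% of all promoters, occurred in none of the 6, and Ccl3, Ccl8 and Ccl12 held none of the 4. The windows of Ccl22 (chr8:94745434-94745733, plus strand) and Ccl17 (chr8:94810203-94810502, plus strand) are shown because both genes rest on few libraries below, and those of Ccl9 (chr11:83578587-83578886, minus strand) and Ccl3 (chr11:83649329-83649628, minus strand) because these genes of 1 cluster differed widely in the size of their change. Motif matches are in capitals, and a match is a description of the letters only.
Ccl22: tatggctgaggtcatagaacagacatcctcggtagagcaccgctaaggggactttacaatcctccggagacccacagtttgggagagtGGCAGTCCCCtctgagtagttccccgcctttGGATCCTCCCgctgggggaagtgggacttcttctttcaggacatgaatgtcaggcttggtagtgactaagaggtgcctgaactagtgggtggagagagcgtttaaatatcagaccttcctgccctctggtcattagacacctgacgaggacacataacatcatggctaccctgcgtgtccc
Ccl17: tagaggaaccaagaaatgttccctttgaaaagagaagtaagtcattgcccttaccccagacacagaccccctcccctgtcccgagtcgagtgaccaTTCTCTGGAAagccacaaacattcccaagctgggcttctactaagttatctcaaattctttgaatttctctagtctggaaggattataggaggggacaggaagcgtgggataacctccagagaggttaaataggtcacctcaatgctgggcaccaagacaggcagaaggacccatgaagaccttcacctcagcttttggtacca
Ccl9: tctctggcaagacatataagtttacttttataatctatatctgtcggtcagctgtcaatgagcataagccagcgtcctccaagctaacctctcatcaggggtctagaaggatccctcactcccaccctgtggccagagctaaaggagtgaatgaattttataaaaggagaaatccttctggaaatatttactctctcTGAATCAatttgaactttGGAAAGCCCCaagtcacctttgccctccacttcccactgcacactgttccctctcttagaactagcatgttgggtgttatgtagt
Ccl3: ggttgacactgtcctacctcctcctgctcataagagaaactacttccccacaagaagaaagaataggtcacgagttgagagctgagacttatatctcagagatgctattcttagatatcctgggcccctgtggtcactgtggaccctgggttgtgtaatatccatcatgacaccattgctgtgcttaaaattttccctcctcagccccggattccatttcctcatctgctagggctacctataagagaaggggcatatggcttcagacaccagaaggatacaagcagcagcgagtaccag

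Together, the 10 transcripts made up very different shares of the libraries. Their summed level was 1028 ± 611 CPM (SD, n = 3) in LPS- tlr4f/f, 19280 ± 6198 CPM in LPS- tlr4f/f-lysM-cre, 1321 ± 107 CPM in LPS+ tlr4f/f and 9103 ± 382 CPM in LPS+ tlr4f/f-lysM-cre. The make-up of this pool, compared per kb of transcript, changed as well. Ccl9, which macrophages make without stimulation, held 59.0 ± 3.37% (SD, n = 3) of the summed CPM per kb in LPS+ tlr4f/f but 21.1 ± 2.54% in LPS+ tlr4f/f-lysM-cre and 5.23 ± 0.306% in LPS- tlr4f/f-lysM-cre. Ccl3 led in LPS+ tlr4f/f-lysM-cre with 41.2 ± 2.81%, and Ccl3 and Ccl5 shared the lead in LPS- tlr4f/f-lysM-cre with 29.8 ± 8.59% and 29.5 ± 8.49%, with overlapping ranges. In LPS- tlr4f/f the shares varied too widely between libraries to be ordered: that of Ccl9 ran from 18.2 to 54.9% and that of Ccl5 from 3.91 to 37.1%. Ccl17 and Ccl22 together stayed below 1% of the pool in each library.

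**Figure D1:**
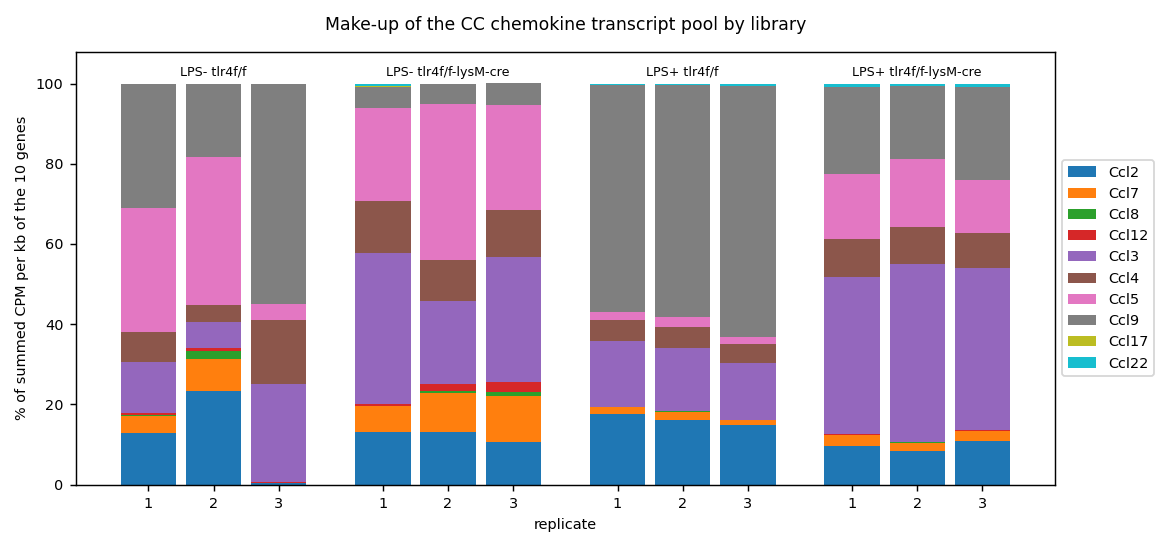
Stacked bars of the share of each CC chemokine in the summed CPM per kb of the 10 genes (y axis, percent) in each of the 12 libraries (x axis, replicates 1 to 3 of the 4 groups as headed). Ccl9 fills 56.4 to 62.8% of the LPS+ tlr4f/f bars, and Ccl3 39.0 to 44.4% of the LPS+ tlr4f/f-lysM-cre bars.

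Among the CCR2 ligands, Ccl2, the main attractant of Ly6Chi monocytes, was at 86.3, 268 and 0.656 CPM in LPS- tlr4f/f, 3179, 2222 and 1490 CPM in LPS- tlr4f/f-lysM-cre. It was at 99.9, 78.3 and 69.5 CPM in LPS+ tlr4f/f, and 583, 534 and 586 CPM in LPS+ tlr4f/f-lysM-cre. Each tlr4f/f-lysM-cre group overlapped with no other group, and the lowest library, replicate 3 of LPS- tlr4f/f, had 35 counts where the others of its group had 5031 and 16796. Ccl7, its neighbour, was at 27.9, 89.5 and 0.0187 CPM in LPS- tlr4f/f, the last of these from 1 count. It was at 1601, 1592 and 1576 CPM in LPS- tlr4f/f-lysM-cre, at 5.31 to 9.68 CPM in LPS+ tlr4f/f and at 141 to 160 CPM in LPS+ tlr4f/f-lysM-cre. In LPS- tlr4f/f-lysM-cre, Ccl7 had an SD of 0.797% of the mean, in libraries where the SD of Ccl3 was 54.2% of its mean. Both its level and this spread moved with the scaling: with plain library totals Ccl7 was at 1169, 1119 and 1297 CPM, with an SD of 7.66% of the mean, and with RLE factors its mean was 1654 CPM with an SD of 1.26%.

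Ccl12, a further CCR2 ligand of rodents, was at 2.66, 7.17 and 0.131 CPM in LPS- tlr4f/f, 87.5, 221 and 248 CPM in LPS- tlr4f/f-lysM-cre. It was at 0.105, 0.361 and 0.226 CPM in LPS+ tlr4f/f, and 11.9, 10.3 and 8.93 CPM in LPS+ tlr4f/f-lysM-cre. All 4 groups were apart from each other except LPS- tlr4f/f and LPS+ tlr4f/f, and LPS+ tlr4f/f rested on 5 to 14 counts per library. Ccl8 was the least abundant of the set in both tlr4f/f-lysM-cre groups, at 2.60, 54.5 and 76.7 CPM in LPS- tlr4f/f-lysM-cre and 0.829, 0.850 and 0.398 CPM in LPS+ tlr4f/f-lysM-cre. In LPS- tlr4f/f it was at 0.857, 14.0 and 0.0187 CPM, and in LPS+ tlr4f/f at 0.0631, 0.567 and 0.0173 CPM. Its libraries spread up to 746-fold within a group, and LPS- tlr4f/f-lysM-cre lay above both LPS+ groups while all other pairs of groups overlapped. In LPS- tlr4f/f-lysM-cre, replicate 1 was lowest for Ccl8 and Ccl12 but highest for 7 of the other genes.

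**Figure D2:**
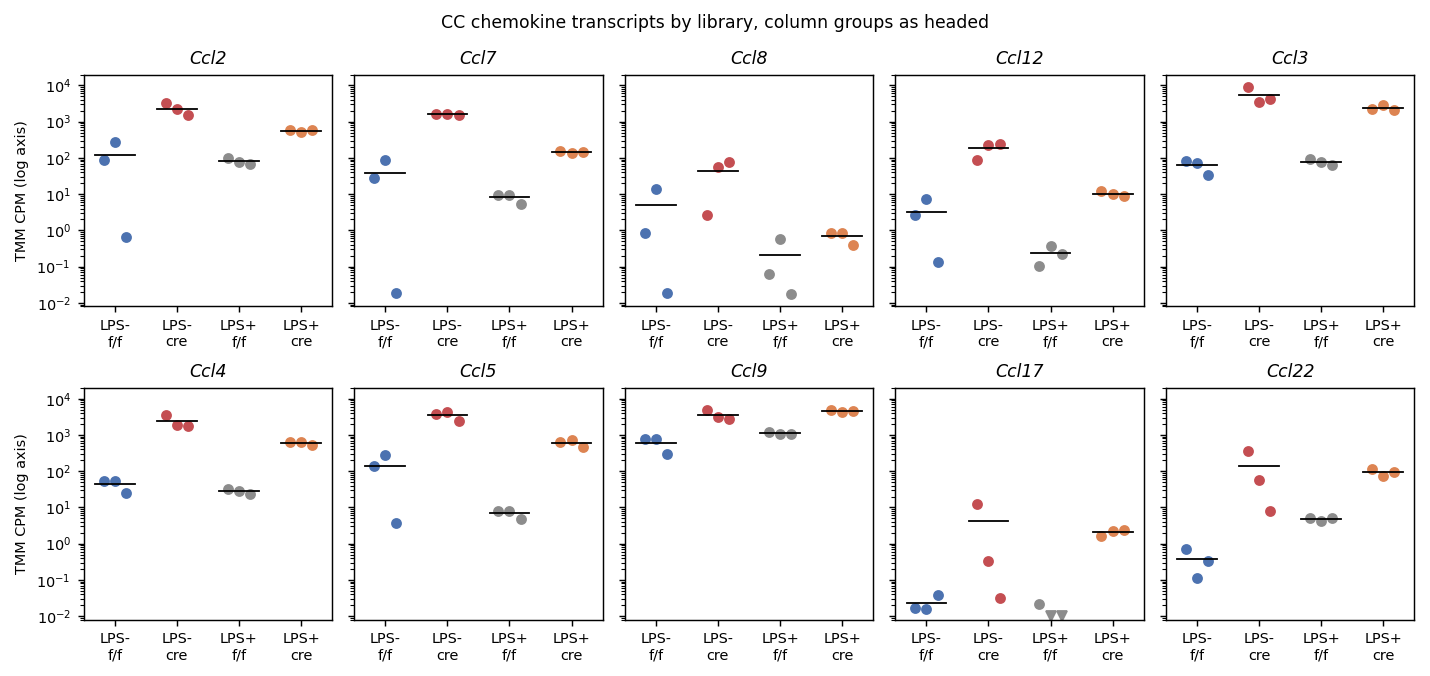
TMM-scaled CPM (y axis, log scale) of each CC chemokine in the 3 libraries of each group as headed (x axis); points are libraries in the order of replicates 1 to 3, lines are group means, and triangles are libraries with 0 counts drawn at the lower edge. In 9 of the 10 genes all LPS+ tlr4f/f-lysM-cre points lie above all LPS+ tlr4f/f points. Replicate 3 headed LPS- tlr4f/f lies far below its group for Ccl2, Ccl5, Ccl7, Ccl8 and Ccl12.

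Of the inflammatory chemokines of the second set, Ccl3 was at 83.3, 70.4 and 34.4 CPM in LPS- tlr4f/f, 8984, 3398 and 4263 CPM in LPS- tlr4f/f-lysM-cre. It was at 91.6, 75.0 and 65.0 CPM in LPS+ tlr4f/f, and 2297, 2806 and 2137 CPM in LPS+ tlr4f/f-lysM-cre. Its neighbour Ccl4 was at 54.1, 53.4 and 25.2 CPM, 3475, 1863 and 1785 CPM, 32.4, 27.8 and 23.8 CPM, and 625, 640 and 517 CPM in the same order of groups. For both genes the 2 tlr4f/f groups overlapped with each other, and both tlr4f/f-lysM-cre groups lay far above them. Unlike Ccl2 and Ccl7, replicate 3 headed LPS- tlr4f/f was within 2.42-fold of its group's highest library for Ccl3 and within 2.14-fold for Ccl4.

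Ccl5, also called RANTES, which draws T cells and is a known target of interferon signalling, was at 137, 280 and 3.71 CPM in LPS- tlr4f/f, 3722, 4352 and 2417 CPM in LPS- tlr4f/f-lysM-cre. It was at 8.20, 8.22 and 4.86 CPM in LPS+ tlr4f/f, and 649, 722 and 466 CPM in LPS+ tlr4f/f-lysM-cre. Replicate 3 of LPS- tlr4f/f lay below all LPS+ tlr4f/f libraries and the other replicates far above them, so these 2 groups overlapped. Ccl9, a CCR1 ligand, was at 773, 777 and 295 CPM, 4906, 3064 and 2822 CPM, 1197, 1051 and 1090 CPM, and 4857, 4416 and 4708 CPM in the 4 groups in that order. LPS+ tlr4f/f lay above LPS- tlr4f/f without overlap, and both tlr4f/f-lysM-cre groups overlapped.

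The CCR4 ligands were scarce in both tlr4f/f groups, at most 5.2 CPM, and varied widely within LPS- tlr4f/f-lysM-cre. Ccl22 was at 0.720, 0.112 and 0.337 CPM in LPS- tlr4f/f, 361, 58.5 and 8.24 CPM in LPS- tlr4f/f-lysM-cre. It was at 5.2, 4.30 and 4.98 CPM in LPS+ tlr4f/f, and 114, 76.0 and 95.2 CPM in LPS+ tlr4f/f-lysM-cre. Ccl17 had 1, 1 and 2 counts in LPS- tlr4f/f and 1, 0 and 0 in LPS+ tlr4f/f, so both groups were at the floor of 3 counts per library, against 461, 11 and 1 counts in LPS- tlr4f/f-lysM-cre and 69, 80 and 111 in LPS+ tlr4f/f-lysM-cre. The mean of Ccl17 in LPS+ tlr4f/f-lysM-cre was at least 32.4-fold higher than in LPS+ tlr4f/f at that floor. That of LPS- tlr4f/f-lysM-cre was at least 82.0-fold higher than in LPS- tlr4f/f, but it came almost wholly from replicate 1. The same replicate had the most Ccl22 and the most Ccr7, the homing receptor of mature dendritic cells, at 8.67 CPM against 1.84 and 0.249 CPM in replicates 2 and 3. The dendritic cell markers, a list that holds Ccr7, summed there to 13.2 CPM against 4.98 and 6.59 CPM, and Ccr7 made up most of the 13.2 CPM. The other markers did not follow it. Xcr1 (3.92, 2.62 and 5.47 CPM in replicates 1 to 3) and Zbtb46 (0.429, 0.280 and 0.591 CPM) were highest in replicate 3, and Clec9a (0.161, 0.249 and 0.218 CPM) in replicate 2. Flt3, Cd209a and Siglech were at the floor. The part of dendritic cells in the result was not tested.

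The comparison of LPS+ tlr4f/f-lysM-cre with LPS+ tlr4f/f is as headed that of genotypes with LPS present, and with the headings exchanged the effect of LPS in tlr4f/f-lysM-cre BMDMs. A gene was called a DEG where edgeR gave more than 2-fold difference at an adjusted p (Benjamini-Hochberg, all genes tested) under 0.01. All of the family but Ccl8 were DEGs, 9 of 10 genes, each higher in LPS+ tlr4f/f-lysM-cre, where 10.8% of 14551 genes tested were higher and 10.9% lower. The libraries of these 9 genes did not overlap, which 31.3% of genes showed in this direction. The median log2 fold change was 4.36 over the family and -0.02 over all genes. Ccl5 rose by a log2 fold change of 6.46 ± 0.33 (SE, adjusted p = 4.44e-05), Ccl12 by 5.53 ± 0.26 (2.48e-09), Ccl3 by 4.98 ± 0.18 (9.79e-07), Ccl4 by 4.42 ± 0.14 (1.07e-07), Ccl22 by 4.30 ± 0.17 (7.76e-07) and Ccl7 by 4.21 ± 0.25 (4.91e-05). Ccl2 rose by 2.79 ± 0.14 and Ccl9 by 2.08 ± 0.07, the smallest of the 9, and the fitted value of Ccl17 is no bound, so only its lower bound is given above. Ccl8, Ccl12 and Ccl17 passed the filter on low counts only with the libraries of LPS+ tlr4f/f-lysM-cre, where they were higher. Any call of these genes, also in the refits of Ccl8 below, could therefore come out in that direction only. Ccl8 had a log2 fold change of 1.82 ± 0.90 (adjusted p = 0.115 by edgeR). Without replicate 2 of LPS+ tlr4f/f, its highest library there, that group was left with 3 and 1 counts, at the floor. The fitted value was then 4.09 (adjusted p = 0.000843 by edgeR) and is no bound. With the replicate number as a block, which this comparison allows, it was 2.16 with an adjusted p of 0.00775, and all 10 genes were DEGs. With all 12 libraries in 1 fit, 5 genes stayed DEGs, and Ccl2, Ccl7, Ccl17 and Ccl22 did not.

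LPS- tlr4f/f-lysM-cre against LPS- tlr4f/f is as headed the comparison of genotypes without LPS, and with the headings exchanged the effect of LPS in tlr4f/f BMDMs. Ccl3, Ccl4 and Ccl9, all of the second cluster of chromosome 11, were DEGs and higher in LPS- tlr4f/f-lysM-cre, 3 of the 9 genes that passed the filter on low counts (Ccl17 did not), where 9.26% of 14649 genes tested were higher and 7.81% lower. Ccl3 rose by a log2 fold change of 6.46 ± 0.63 (adjusted p = 0.00101), Ccl4 by 5.74 ± 0.50 (0.00074) and Ccl9 by 2.54 ± 0.46 (0.00729) by edgeR. The other 6 had larger spreads: Ccl22 8.51 ± 1.70 (adjusted p = 0.0104), Ccl12 5.78 ± 1.28 (0.015), Ccl7 5.33 ± 1.89 (0.0676), Ccl5 4.62 ± 1.35 (0.0373), Ccl2 4.26 ± 1.65 (0.0857) and Ccl8 3.15 ± 1.87 (0.228). Still, the libraries of 8 of the 10 genes did not overlap, all but Ccl8 and Ccl17, as in 23.8% of genes in this direction, and the median log2 fold change of the 9 was 5.33 against -0.08 over all genes. Without replicate 3 of LPS- tlr4f/f, Ccl5, Ccl7 and Ccl12 were also DEGs (6 genes), and without any other library Ccl9 was not (adjusted p between 0.0175 and 0.0223), while without replicate 3 of LPS- tlr4f/f-lysM-cre Ccl22 was. DESeq2 and the fit of all 12 libraries each called 7 genes. With all libraries of both groups, Ccl7, Ccl8, Ccl12 and Ccl22 passed the filter only through LPS- tlr4f/f-lysM-cre, where they were higher. Calls of these genes in such fits could therefore come out in that direction only, and the median over the 9 includes them. The summed fibroblast and stromal markers ran from 10.5 to 679 CPM in LPS- tlr4f/f and from 139 to 1500 CPM in LPS- tlr4f/f-lysM-cre. Their part in these differences was not tested.

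LPS+ tlr4f/f-lysM-cre against LPS- tlr4f/f-lysM-cre is as headed the effect of LPS without myeloid TLR4, and with the headings exchanged the comparison of genotypes with LPS. Ccl2, Ccl4, Ccl5, Ccl7 and Ccl12 were DEGs, 5 of 10 genes, all lower in LPS+ tlr4f/f-lysM-cre, where 3.66% of 14245 genes tested were lower and 2.42% higher. The log2 fold change by edgeR was -3.42 ± 0.12 for Ccl7 (adjusted p = 0.00022), -4.15 ± 0.42 for Ccl12 (0.00199), -2.50 ± 0.27 for Ccl5 (0.00242), -2.0 ± 0.27 for Ccl2 (0.00456) and -1.99 ± 0.29 for Ccl4 (0.00572). Ccl8 had a log2 fold change of -6.00 ± 1.22 (adjusted p = 0.0152) and Ccl3 of -1.19 ± 0.38 (0.0578), and the libraries of these 7 genes did not overlap, as in 21.6% of genes in this direction. Ccl9 (0.38 ± 0.23, adjusted p = 0.259), Ccl22 (-0.57 ± 1.09, 0.725) and Ccl17 (-1.03 ± 1.48, 0.641) had overlapping libraries, and without replicate 1 of LPS- tlr4f/f-lysM-cre those of Ccl22 and Ccl17 were 1.51 and 3.45, in the opposite direction. The median over the family was -2.0, against 0.03 over all genes. Without any 1 of the LPS+ tlr4f/f-lysM-cre libraries (replicate 1, 2 or 3) Ccl7 alone stayed a DEG, while all genes called went from 867 to 4, 7 or 15, and without replicate 1 of LPS- tlr4f/f-lysM-cre Ccl8 was added. Only 2 genes stayed DEGs with the replicate number as a block (Ccl5 and Ccl7) or with all 12 libraries in 1 fit (Ccl4 and Ccl12). The fibroblast and stromal markers summed to 32 to 46.7 CPM in LPS+ tlr4f/f-lysM-cre against 139 to 1500 CPM, and the neutrophil markers to 5.36 to 7.18 CPM against 14.2 to 190.0 CPM. Their part in these differences was not tested.

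LPS+ tlr4f/f against LPS- tlr4f/f is as headed the effect of LPS with TLR4 intact, and with the headings exchanged the comparison of genotypes without LPS. None of the 9 genes tested was a DEG by edgeR, nor was any of 14712 genes (0% higher and 0% lower). At an unadjusted p under 0.05 there were 3 of the 9 and 3626 of all genes (24.6%): Ccl5 (log2 fold change -4.30 ± 1.34, adjusted p = 0.124), Ccl12 (-3.85 ± 1.32, 0.148) and Ccl22 (3.64 ± 0.63, 0.0535), the 3 that DESeq2 called, Ccl22 higher and the others lower. Ccl22 passed the filter on low counts here only with the libraries of LPS+ tlr4f/f, so its call could come out in that direction only. The libraries of Ccl9 and Ccl22 were higher without overlap (16.6% of genes) and those of none of the 10 lower without overlap (17.2% of genes). Ccl2 (-0.51 ± 1.42) and Ccl3 (0.31 ± 0.33) were close to no difference, with an error for Ccl2 that leaves large ones possible, and the median of the 9 was -0.65. Without replicate 3 of LPS- tlr4f/f, Ccl5 was a DEG (-4.87, adjusted p = 0.0086).

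**Figure D3:**
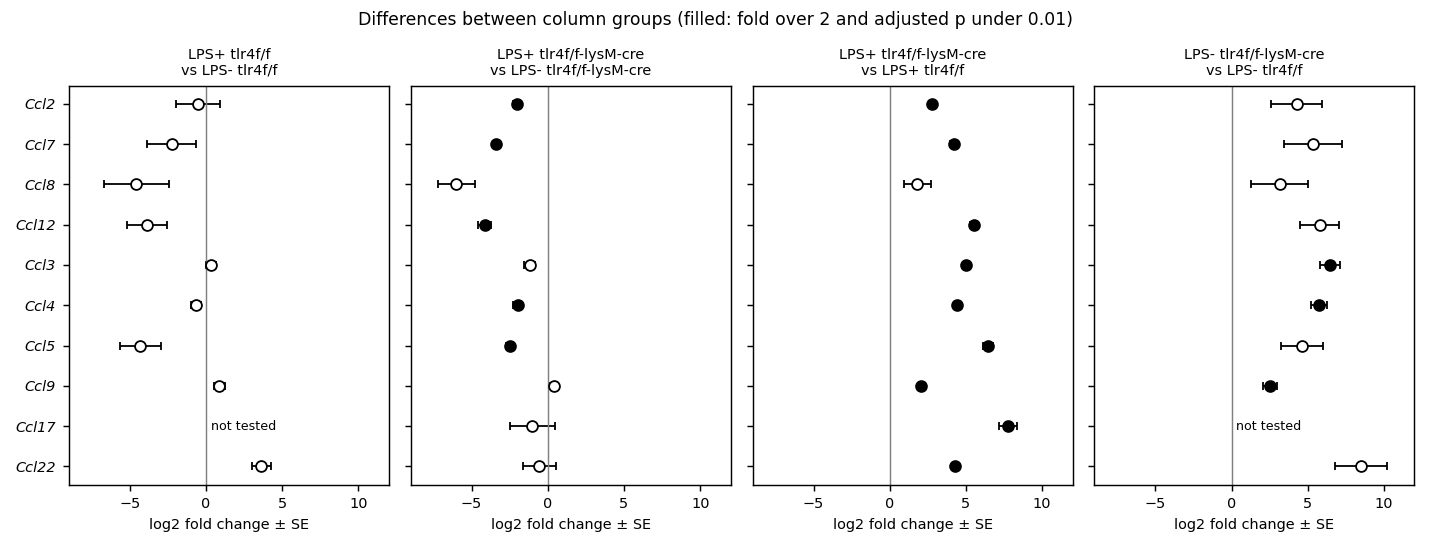
Log2 fold change with its SE (x axis) of each CC chemokine (rows) in the 4 comparisons of groups as headed (panels), with filled points for DEGs. All filled points of LPS+ tlr4f/f-lysM-cre against LPS+ tlr4f/f lie to the right (9 genes) and all those against LPS- tlr4f/f-lysM-cre to the left (5 genes).

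The interaction asks whether the LPS difference depends on the genotype, and it is the same contrast under both readings. None of the 10 genes was called by edgeR, where 0.589% of 15792 genes were higher and 0.405% lower, and DESeq2 called none of the 10 either. At an unadjusted p under 0.05 there were 3 of the 10, beside 23.4% of all genes: Ccl22 (-4.22 ± 1.48 on the log2 scale, adjusted p = 0.116), Ccl3 (-1.50 ± 0.54, 0.123) and Ccl4 (-1.34 ± 0.45, 0.1). A p above the threshold does not show that the LPS difference was alike in the genotypes, as the SE of Ccl2, Ccl5, Ccl7, Ccl8 and Ccl12 was 1.32 to 2.50.

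Ratios of 2 chemokines within a library do not depend on the scaling, and several set the groups apart. The pairs were picked by name, and how often other gene pairs do so was not counted. Ccl22 over Ccl17 did not: it was 29.2 to 265 in LPS- tlr4f/f-lysM-cre and 34.7 to 71.7 in LPS+ tlr4f/f-lysM-cre. In the tlr4f/f groups Ccl17 was at the floor. The count of Ccl3 over that of its neighbour Ccl4 was 1.32 to 1.54 in LPS- tlr4f/f, 1.82 to 2.59 in LPS- tlr4f/f-lysM-cre, 2.70 to 2.83 in LPS+ tlr4f/f and 3.67 to 4.39 in LPS+ tlr4f/f-lysM-cre, so that none of the 4 groups overlapped. They did not overlap either with the curated Ccl4 transcript (1.45 to 1.75, 1.84 to 2.60, 3.11 to 3.22 and 3.76 to 4.49). Ccl7 over Ccl2 was 0.504 to 1.06 in LPS- tlr4f/f-lysM-cre, 0.244 to 0.273 in LPS+ tlr4f/f-lysM-cre and 0.0764 to 0.121 in LPS+ tlr4f/f. That of LPS- tlr4f/f ran from 0.0286 to 0.334, across both LPS+ groups. The lowest value, of replicate 3, rested on 1 count of Ccl7 and 35 of Ccl2. Replicates 1 and 2 were at 0.324 and 0.334, above both LPS+ groups. Ccl5 over Ccl2 was 0.0699 to 0.105 in LPS+ tlr4f/f and at least 0.795 in every library of the other groups, the LPS- tlr4f/f libraries included (1.05 to 5.66). Replicate 1 of LPS- tlr4f/f had Ccl2 at 86.3 CPM, within the range of LPS+ tlr4f/f, but Ccl5 at 137 CPM against at most 8.22 CPM there. Ccl3 over Ccl9, genes of 1 cluster, was 0.0596 to 0.117 in the tlr4f/f groups, 0.454 to 0.635 in LPS+ tlr4f/f-lysM-cre and 1.11 to 1.83 in LPS- tlr4f/f-lysM-cre.

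**Figure D4:**
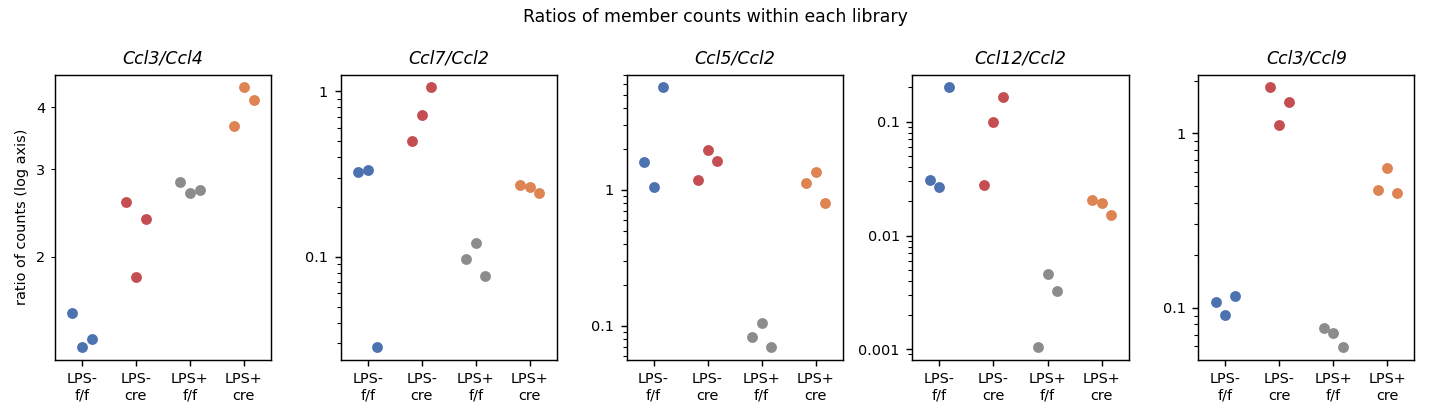
Ratio of the counts of 2 CC chemokines within a library (y axis, log scale, a scale of its own in each panel) for 5 gene pairs in the 3 libraries of each group as headed (x axis). Ccl3 over Ccl4 sets all 4 groups apart, and Ccl5 over Ccl2 is at most 0.105 in LPS+ tlr4f/f and at least 0.795 elsewhere.

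Of 11 other CC ligand genes, 3 or 4 passed the filter on low counts in each of the 4 comparisons. Only Ccl24, an eosinophil attractant of CCR3, was a DEG (adjusted p = 2.16e-05 by edgeR). That was 1 of 4 tested in LPS+ tlr4f/f-lysM-cre against LPS+ tlr4f/f, where 10.8% of all genes tested were higher. It was at 1.36, 1.40 and 1.28 CPM in LPS+ tlr4f/f-lysM-cre against 0.126, 0 and 0.0173 CPM in LPS+ tlr4f/f. The latter held at most 6 counts per library, so no fold is given. Ccl24 passed the filter only through the group where it was high, so its call could come out in that direction only. Ccl6, singled out after its values were seen because it lies between Ccl9 and Ccl3, was no DEG in any of the 4, at 496 to 926 CPM in both LPS+ groups. It was at 138, 1049 and 61.2 CPM in LPS- tlr4f/f and 171, 856 and 1006 CPM in LPS- tlr4f/f-lysM-cre. Of the 14 CC and atypical receptor genes, 3 were higher and 1 lower in LPS+ tlr4f/f-lysM-cre than in LPS+ tlr4f/f, among 8 tested. Over all genes tested there, 10.8% were higher and 10.9% lower. Ccrl2, an atypical receptor that presents ligands without signalling, was at 118, 161 and 138 CPM against 10.3, 10.5 and 11.4 CPM (3.70 ± 0.12, adjusted p = 2.72e-08). Ccr9, the receptor of Ccl25, was at 1.66 to 2.39 CPM against at most 0.126 CPM (adjusted p = 1.06e-06), from 2 to 6 counts per library in the lower group. Ccr7, with 4 to 11 counts per library in that group, rose by 1.74 ± 0.49 (0.00838). Ccr9 and Ccr7 also passed the filter only through LPS+ tlr4f/f-lysM-cre, where they were higher. Ccr2, the receptor of Ccl2, Ccl7 and Ccl12, was lower, at 15.0, 10.1 and 13.2 CPM against 43.4, 37.6 and 37.7 CPM (-1.62 ± 0.13, adjusted p = 4.26e-06), while its ligands were higher. In LPS- tlr4f/f-lysM-cre against LPS- tlr4f/f, Ccrl2 (5.97 ± 0.64, adjusted p = 0.00139 by edgeR) and Ccr9 (1.48 to 3.45 CPM against at most 0.169 CPM, 0.00562) were higher among 7 tested, and Ccr2 had -2.05 ± 0.45 (0.0145). Ccr9 passed the filter there only through LPS- tlr4f/f-lysM-cre. Over all genes tested in that comparison, 9.26% were higher. In LPS+ against LPS- tlr4f/f-lysM-cre, Ccrl2 was lower (-1.97 ± 0.18, 0.00161) among 7, where 3.66% of all genes tested were lower. In LPS+ against LPS- tlr4f/f none of 6 was called, beside 0% of all genes tested.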

How the data were processed

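RNA of 12 BMDM libraries was sequenced in pairs of 150-base reads on a HiSeq instrument. The labels name both rRNA removal and polyA RNA-Seq, and a NEBNext Ultra kit, which does not mark strand. The authors trimmed reads (Trimmomatic 0.36), used HISAT2 and mm10 for alignment and HTSeq for counting. Counting mode and strand setting are not given in the sources used here. The deposited values are raw counts for 115140 transcripts. Transcripts of a gene share reads, so that with the highest total stood for the gene. The 10 genes and all lists were chosen with earlier results of these data known.

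The quasi-likelihood test of edgeR 4.0.16 (R 4.3.3, filterByExpr, TMM, robust) was run on 6 libraries per comparison and on 12 for the interaction, with Benjamini-Hochberg adjustment. SEs follow from the log2 fold change and its F. Named beside the 10 genes were Tlr4, Lyz2, Il1b, and those CC ligands and receptors that were DEGs in at least 1 of 4 comparisons and reached 10 counts throughout 1 group, with Ccl6 added outside this rule. Alternatives were DESeq2 1.42.0, limma 3.58.1 (voom), RLE factors, other filters, summed transcripts, a replicate block, all 12 libraries, a looser adjusted p (0.05) and leaving out single libraries. Curated Ccl4 and Ccl17 transcripts were tried after seeing the data. On simulated counts with 200 genes changed 4-fold, the test recovered 160 (LPS+ against LPS- tlr4f/f), 161 (LPS+ against LPS- tlr4f/f-lysM-cre), 198 (LPS+ tlr4f/f-lysM-cre against LPS+ tlr4f/f) and 73 (LPS- tlr4f/f-lysM-cre against LPS- tlr4f/f), with at most 4 false calls. The changed genes were drawn only from those with higher mean counts, so these recoveries do not cover genes with few counts. The interaction was not simulated. Deviations of same-numbered libraries correlated over 0.1 in every pair only between the LPS+ groups (r = 0.147, 0.163 and 0.333). Numbers were taken as pairs in that comparison alone, from the data and not the labels. Deviations of differently numbered libraries were not correlated beside them. Reads carry no molecular identifiers, so floors cover counting error only.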

Additional observations from a re-analysis of the deposited data

How the results depend on the processing

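The number of DEGs among the 10 genes stayed within 1.5 times its value in 73 refits and moved beyond it in 12. For LPS+ tlr4f/f against LPS- tlr4f/f, DESeq2 called 3 in place of 0, and leaving out a library gave 0 to 1. For LPS+ against LPS- tlr4f/f-lysM-cre, 2 in place of 5 were called with the replicate block and 2 with all 12 libraries, and 1 to 6 with a library left out. For LPS+ tlr4f/f-lysM-cre against LPS+ tlr4f/f, 5 in place of 9 were called with all 12 libraries, and 9 to 10 with a library left out. For LPS- tlr4f/f-lysM-cre against LPS- tlr4f/f, 7 in place of 3 were called by DESeq2, 7 with all 12 libraries, 6 at an adjusted p below 0.05, and 2 to 6 with a library left out. The interaction called 0 throughout, and the curated Ccl4 and Ccl17 rows moved no count. The causes were not tested.

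Directions turned in 17 refitted log2 fold changes of the 10 genes and not in the others, none of the 17 called under either setting. For LPS+ tlr4f/f against LPS- tlr4f/f, Ccl2 was 0.88 with the replicate block, and between -1.09 and 0.93 with a library left out. For LPS+ against LPS- tlr4f/f-lysM-cre, Ccl17 was 1.18 by limma voom and 1.60 with the replicate block, and Ccl22 0.42 and 0.66, and with a library left out they ran from -1.62 to 3.45 and from -1.14 to 1.51, the highest without replicate 1 of LPS- tlr4f/f-lysM-cre. For the interaction, limma voom gave 0.35 for Ccl8 and 0.10 for Ccl12, and with a library left out Ccl8 ran from -4.82 to 0.92, Ccl12 from -1.52 to 0.30 and Ccl17 from -0.20 to 4.88.

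Calls over all genes moved more: LPS+ tlr4f/f against LPS- tlr4f/f called 0 genes but 467 by DESeq2 (0 to 182 with a library left out), and LPS+ against LPS- tlr4f/f-lysM-cre 867 but 2006 by DESeq2 and 212 with the replicate block, LPS+ tlr4f/f-lysM-cre against LPS+ tlr4f/f 3165 but 2072 with all 12 libraries, LPS- tlr4f/f-lysM-cre against LPS- tlr4f/f 2500 but 3997 by DESeq2, 4180 with all 12 libraries and 1039 to 1683 with a library left out, and the interaction 157 but 657 by DESeq2 and 10 to 306 with a library left out, and 10 to 21 where that was any of the LPS+ libraries. The interaction split into 93 genes higher and 64 lower, with RLE factors into 64 and 80. Same-numbered libraries deviated together in 9 of 18 pairs (r over 0.1, range -0.08 to 0.517), and in all 3 only between the LPS+ groups, where the replicate block added Ccl8 and lost none of the 9 genes. Between the LPS- groups, replicates 1 and 2 correlated more closely (r = 0.517 and 0.365), but replicate 3 did not (0.00866). The labels pair no libraries in any comparison, so whether same-numbered libraries belong together is not known. In the other comparisons the block changed no call of the 10 genes beyond the 3 lost in LPS+ against LPS- tlr4f/f-lysM-cre. Ccl17 and, in LPS+ tlr4f/f, Ccl8 and Ccl12 rested on few counts, which limits their folds.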
